A study of Homo sapiens with 28 samples.

Results

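The comparison described here is the second 12 h of an ONC201 time course in JeKo-1 cells, an established human mantle cell lymphoma line of B-cell origin. Its members are 6 of the 28 Illumina bead arrays in the series, the 3 wells labelled 12 h and the 3 labelled 24 h. ONC201 is an imipridone, a small molecule given to cancer patients by mouth. The course also has 3 wells at 0 h, which serve as its untreated cells, and 3 at 36 h, and all 12 arrays lie on 1 chip. Per the labels the drugs were dissolved in DMSO, untreated cells received DMSO, and wells were filled from a common stock culture, so the error behind each p-value is that between wells and may be technical. The labels used here give no ONC201 dose for this course. A second chip holds JeKo-1 cells with tunicamycin at 1 µM, with 2 wells at 12 h and 2 at 24 h, 2 untreated wells at 24 h, and 2 wells with rapamycin at 10 nM at 24 h that enter only the error of the comparison with tunicamycin.

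ONC201 is known to open the mitochondrial protease CLPP to unregulated digestion of proteins in the matrix, and cells answer with the integrated stress response. In that response a kinase phosphorylates the initiation factor eIF2, general translation slows, and the transcription factor ATF4 is made and switches on genes for amino acid supply, tRNA charging and the factor CHOP, encoded by DDIT3. Tunicamycin blocks N-glycosylation in the endoplasmic reticulum, where it starts the unfolded protein response. That response shares the eIF2 branch and adds the XBP1 and ATF6 branches, which raise chaperones of the endoplasmic reticulum.

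A level below is the log2 of a background-corrected, quantile-normalised bead intensity, and a change is a difference of mean levels with its standard error (SE). The first interval, the second and the third run from 0 h to 12 h, 12 h to 24 h and 24 h to 36 h. A gene was called at a Benjamini-Hochberg adjusted p below 0.05 in a limma fit over the 12 arrays and 8823 genes with 1 probe each. The second interval shares its 12 h wells with the first and its 24 h wells with the third, so their values stand side by side and no likeness between them was measured. No untreated well of this chip was harvested at 12 h or 24 h, so time in culture and exposure cannot be told apart. The 12 h wells sit at places D to F of the chip and the 24 h wells at G to I, so place and time cannot be told apart either. In bulk RNA, fewer cells of one kind and less RNA per cell also cannot be told apart.

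The 6 arrays were alike in depth. Their median intensity lay between 61 and 66.6 at 12 h and between 66.7 and 67.2 at 24 h, and 29.9% to 31.3% of probes were detected. Precision is limited by the 3 wells per time. Of the B-cell identity markers with a named probe, CD79A, CD79B, MS4A1 and SOX11 were detected on all 6 arrays and the probe for CCND1, the gene whose translocation marks this lymphoma, on none. Their summed intensity was 16502 to 18132 at 12 h and 14527 to 15842 at 24 h. None of the 5 T-cell markers and none of the 5 myeloid markers with a probe was detected on any of the 6 arrays. Of 6 epithelial and stromal markers, KRT8 was detected on 1 array and the other 5 on none.

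Between 12 h and 24 h genes of the integrated stress response rose in JeKo-1 cells with ONC201 (22 of 24 tested), TRIB3 by 1.97 ± 0.08 and DDIT3, which encodes CHOP, by 1.38 ± 0.08 on the log2 scale. Genes for cytosolic heat shock proteins (12 of 16) and sterol synthesis (10 of 16) fell. In all, 1823 of the 8823 genes changed, which is 20.7%. Of these, 969 rose (11.0% of genes tested) and 854 fell (9.68%). Most changes were small. The 5th and the 95th percentile over all genes were -0.4 and 0.45 on the log2 scale, with a median of 0.003, and 49 genes rose and 16 fell by 2-fold or more. In the first interval 337 genes changed, or 3.82%, 191 up and 146 down (83 up and 148 down under median centring). In the third 1275 changed, or 14.5%, 612 up and 663 down. Without the second 24 h well the second interval held 1206 calls. With each array centred on its median instead of quantile-normalised, 1115 genes rose and 384 fell, with a median change of 0.073.

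Whether a gene starts, continues or stops was read from the change in each interval and from the change of pace, the second-interval change minus the first, tested in the same fit. The pace changed for 85 genes, or 0.963% of those tested. Of these, 55 had the more positive change in the second interval and 30 the more negative. Under median centring the pace changed for 100 genes, 85 more positive and 15 more negative. It changed for 50, 32 and 33 genes without the first, the second and the third 12 h well and for 55 without the second 24 h well. A gene started if it was called in the second interval but not the first and its pace was called. By that rule 62 genes started, 40 upward and 22 downward, and under median centring 65 upward and 11 downward. The 169 that continued, 105 upward and 64 downward, were called in the same direction in both intervals. Another 3 stopped, called in the first interval and not in the second with a called pace, and 15 reversed, called in opposite directions. A further 1577 genes were called in the second interval alone without a called pace, so a start was not shown for them. Likewise 150 of the 337 genes called in the first interval were not called in the second and had no called pace. A stop was not shown for these 150. The classes rest on fitted changes, also where a probe was below the detection limit. MFAP4 was counted as continuing though its probe was detected on no 12 h array, so its first-interval change may lie within background.

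The starting genes moved by a median of 0.12 in the first interval and 0.88 in the second, without regard to sign, a contrast that the rule itself requires. Of the 62, 43 were called again in the same direction from 24 h to 36 h, 1 in the opposite direction and 18 not at all. Among the continuing genes, 10 moved faster in the second interval, by a median of 0.63 and then 1.91. For the other 159 the paces, 0.45 and 0.52 at the median, could not be told apart. In the third interval 57 of the 169 moved on in the same direction, 11 turned back and 101 were not called. A start also rests on a first-interval change that missed the threshold. Over 19 other settings, 19 of the 62 starting genes and 43 of the 169 continuing genes held their class in every one. Just inside the rule for starting, GOT1 had a pace adjusted p of 0.0488, and just outside it UBASH3B had 0.0517. The number starting was 41 without the first 0 h well, 35, 23 and 24 without the first, the second and the third 12 h well, and 41 without the second 24 h well. The number continuing was 112 without the first or the third 0 h well, and 81, 78 and 86 without the first, the second and the third 12 h well.

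**Figure D1:**
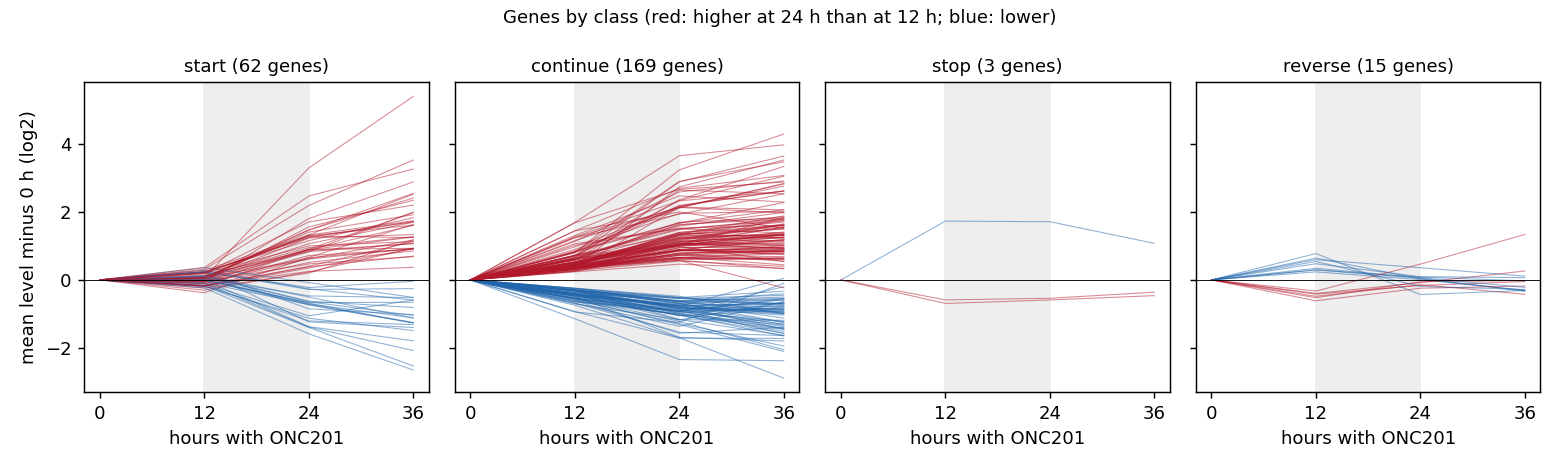
Mean log2 level minus the 0 h mean, on the y axis, against hours with ONC201, on the x axis, with 1 line per gene in panels for the 62 starting, 169 continuing, 3 stopping and 15 reversing genes. Red lines are genes higher and blue lines genes lower at 24 h than at 12 h, in every panel. The starting genes spread mostly after 12 h, which their rule requires (medians of 0.12 and then 0.88).

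The 40 genes that started upward were led by PRPH, which encodes the intermediate filament protein peripherin. Its level was 4.42, 4.66 and 4.63 in the 12 h wells and 7.98, 7.72 and 7.71 in the 24 h wells, so the groups were far apart. Its probe was not above background on any 12 h array and was detected on all 3 at 24 h, so its increase is given as a bound of at least 4.88-fold (adjusted p = 4.71e-10). The probe was not above background at 0 h either, so nothing is said of the first interval, and it rose again in the third (2.11 ± 0.09). GAB2, a docking adaptor for signalling receptors, read 5.93, 5.80 and 6.12 in the 12 h wells and 7.89, 7.89 and 7.72 in the 24 h wells. All 24 h wells lay above all 12 h wells, a change of 1.88 ± 0.09 (adjusted p = 1.1e-07) after 0.31 ± 0.09 in the first interval. SYTL1, a synaptotagmin-like protein that binds RAB27, changed by 2.11 ± 0.16 with no overlap. MIAT, a long non-coding RNA, changed by 1.86 ± 0.07, P2RX1, an ATP-gated ion channel, by 1.59 ± 0.07, TMEM154, a membrane protein, by 1.51 ± 0.10 and SERPINE2, a secreted serpin, by 1.42 ± 0.08. All 24 h wells were above all 12 h wells in each. Their first-interval changes were -0.05, -0.03, 0.19 and 0.05, none called.

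Several starters belong to the stress responses named above. PPP1R15A encodes GADD34, which directs the phosphatase that reverses eIF2 phosphorylation and is a CHOP target. It read 7.48, 7.27 and 7.29 in the 12 h wells and 8.71, 8.57 and 8.47 in the 24 h wells and did not overlap, a change of 1.23 ± 0.09 (adjusted p = 3.35e-06) after 0.09 ± 0.09. MAP1LC3B, the LC3 protein that coats autophagosome membranes, changed by 1.00 ± 0.07 after 0.07 ± 0.07. DNAJB9, a cochaperone of the endoplasmic reticulum, read 7.36, 7.49 and 7.43 at 12 h against 8.18, 8.44 and 8.38 at 24 h. Its change was 0.90 ± 0.10 after 0.01 ± 0.10, with no overlap. LONP1, a protease of the mitochondrial matrix, read 11.49, 11.44 and 11.54 at 12 h against 12.33, 12.38 and 12.29 at 24 h. The groups were apart and the change was 0.84 ± 0.08 after 0.11 ± 0.08. SLC3A2, the heavy chain shared by several amino acid transporters, changed by 0.80 ± 0.07 and GOT1, the cytosolic aspartate aminotransferase, by 0.72 ± 0.07. DNAJB9, LONP1, SLC3A2 and GOT1 kept the class of starting genes under 10, 10, 8 and 8 of the 19 other settings, while PPP1R15A and MAP1LC3B kept it under all 19.

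**Figure D2:**
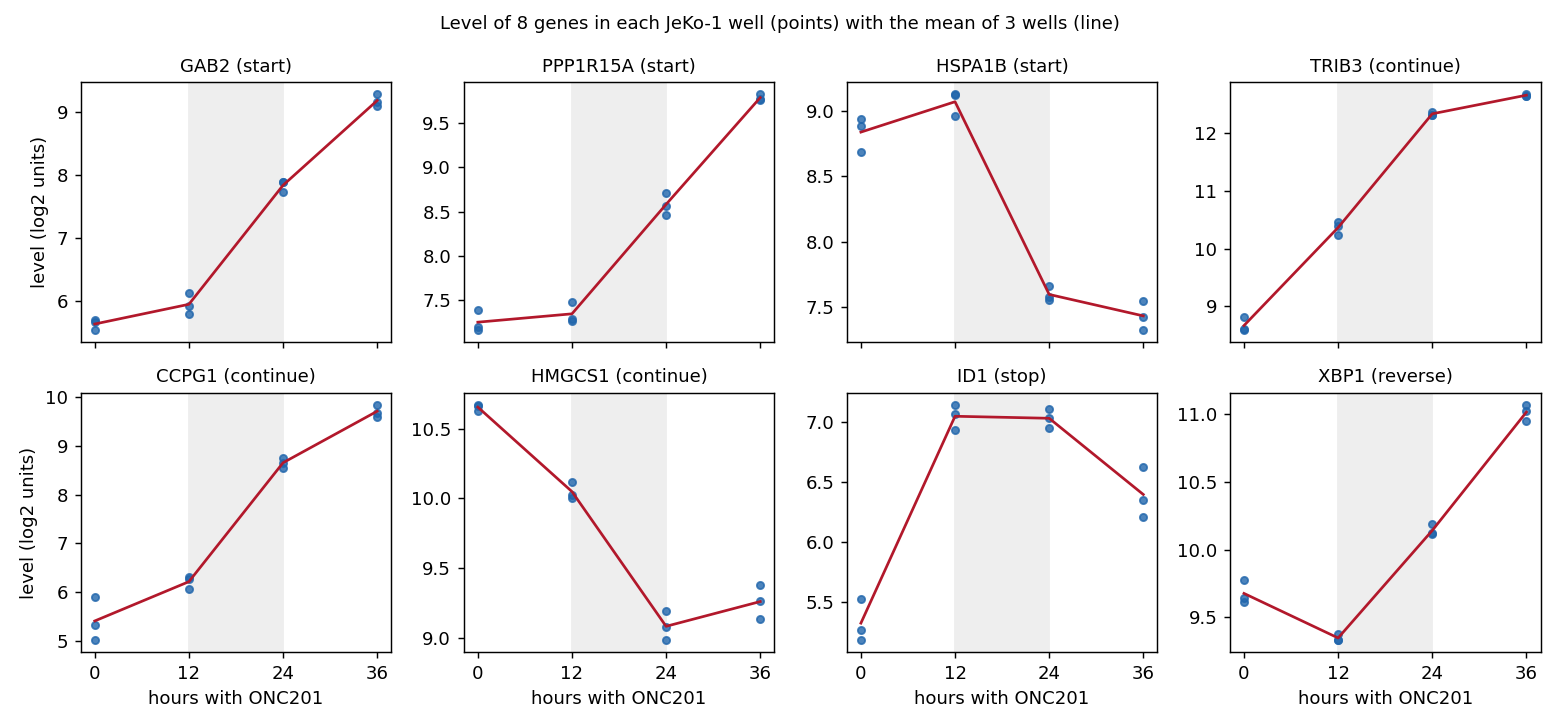
Log2 level of 8 genes, on the y axis, against hours with ONC201, on the x axis, with a point per well, a line through the means and the interval from 12 h to 24 h shaded. GAB2 and PPP1R15A rise and HSPA1B falls mainly from 12 h, and TRIB3, CCPG1 and HMGCS1 move in both intervals. ID1 rises, stays at about 7.05 from 12 h to 24 h and then falls. XBP1 turns from a decrease to an increase.

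Of the 22 genes that started downward, HSPA1B fell furthest. It encodes an inducible cytosolic HSP70 chaperone, and since HSPA1A is nearly identical the probe may read both. Its level was 8.96, 9.12 and 9.13 in the 12 h wells and 7.66, 7.55 and 7.58 in the 24 h wells, with all 24 h wells below all 12 h wells. The change was -1.47 ± 0.09 (adjusted p = 6.05e-07) after 0.23 ± 0.09 in the first interval, and it was -0.16 ± 0.09 in the third. HSPH1, a nucleotide exchange factor for HSP70, read 11.74, 11.85 and 11.90 in the 12 h wells and 10.80, 10.79 and 10.74 in the 24 h wells, again apart, and changed by -1.05 ± 0.07. HSPA8, the constitutive HSP70, changed by -0.94 ± 0.09 and held the class of starting genes under 6 of 19 settings. CALR, the lectin chaperone calreticulin of the endoplasmic reticulum, read 10.72, 10.86 and 10.76 in the 12 h wells and 9.79, 9.78 and 9.92 in the 24 h wells. It did not overlap and changed by -0.95 ± 0.08 after -0.11 ± 0.08.

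The other downward starters described here have varied roles. PTPN6, the phosphatase SHP-1 that restrains B-cell receptor signals, read 9.12, 8.96 and 8.95 in the 12 h wells and 7.75, 7.62 and 7.60 in the 24 h wells. It changed by -1.35 ± 0.09 with no overlap and fell on in the third interval (-1.07 ± 0.09). NAPSA and the transcribed pseudogene NAPSB changed by -1.29 ± 0.10 and -1.23 ± 0.11. They are near-identical in sequence, so their probes may not separate them. NTS, which encodes the peptide neurotensin, changed by -1.38 ± 0.15. The histone gene H3C8 changed by -1.09 ± 0.14, from levels of 7.51, 7.37 and 7.33 at 12 h against 6.56, 6.24 and 6.14 at 24 h, and ATP5MC1, a subunit of the membrane ring of ATP synthase, by -0.73 ± 0.07.

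The untreated wells of the other chip give levels for JeKo-1 cells at 24 h without drug, in 2 wells and on a chip of its own. There HSPA1B read 7.57, HSPH1 10.99 and HSPA8 12.40 in the mean, near the ONC201 levels at 24 h and below those at 0 h, which were 8.84, 11.98 and 13.53. NAPSB read 7.88 there against 9.88 at 0 h. For the rising genes PPP1R15A and GAB2 the same wells read 7.46 and 6.35, below all 24 h ONC201 wells. The part of chip and of culture time in these decreases was not tested.

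Among the continuing genes TRIB3 moved steeply in both intervals. It encodes a pseudokinase that CHOP and ATF4 induce and that dampens both. Its level was 10.46, 10.39 and 10.24 in the 12 h wells and 12.31, 12.36 and 12.31 in the 24 h wells, with no overlap, after a 0 h mean of 8.67. The changes were 1.69 ± 0.08 in the first interval, 1.97 ± 0.08 in the second (adjusted p = 2.48e-08) and 0.32 ± 0.08 in the third. CCPG1, a receptor for autophagy of the endoplasmic reticulum and an ATF4 target, read 6.06, 6.27 and 6.32 in the 12 h wells and 8.54, 8.76 and 8.66 in the 24 h wells. Its change went from 0.81 ± 0.17 to 2.44 ± 0.17, but its probe was detected on 1 of the 3 arrays at 0 h, so the first change may be understated. It stayed a continuing gene under 12 of 19 settings. PLEK, the protein kinase C substrate pleckstrin, went from 0.40 ± 0.06 to 2.34 ± 0.06, and NIBAN1, a stress-induced regulator of translation, from 0.81 ± 0.09 to 2.09 ± 0.09. ASS1, which makes argininosuccinate on the way to arginine, went from 0.60 ± 0.08 to 1.76 ± 0.08 and PSAT1, an enzyme of serine synthesis, from 0.42 ± 0.06 to 0.89 ± 0.06. WARS1, the tryptophanyl-tRNA synthetase, went from 0.33 ± 0.08 to 1.82 ± 0.08, though it kept its class under 7 of 19 settings. In all of these the 24 h wells lay above the 12 h wells.

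DDIT3 read 9.78, 9.90 and 9.68 in the 12 h wells and 11.16, 11.18 and 11.16 in the 24 h wells, without overlap, and continued from 0.80 ± 0.08 to 1.38 ± 0.08. SESN2, a sestrin that restrains mTORC1 when amino acids are short, was detected on no 0 h array, rose at least 1.45-fold to 12 h and then changed by 1.26 ± 0.13, and DDIT4, another brake on mTORC1, went from 1.27 ± 0.09 to 1.06 ± 0.09. For these the pace was not called, and in the third interval SESN2 (0.38 ± 0.13) and DDIT4 (0.28 ± 0.09) were no longer called while DDIT3 was (0.44 ± 0.08). PCK2, the mitochondrial enzyme that makes phosphoenolpyruvate, followed the same course with 1.16 ± 0.07, 0.98 ± 0.07 and -0.08 ± 0.07 over the intervals.

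Continuing decreases included sterol genes and immune genes. HMGCS1, an early enzyme of cholesterol synthesis, read 10.02, 10.00 and 10.12 in the 12 h wells and 8.98, 9.08 and 9.19 in the 24 h wells. The groups did not overlap, and the change was -0.97 ± 0.08 (adjusted p = 8.63e-06) after -0.61 ± 0.08, with 0.18 ± 0.08 in the third interval. CD1C, a lipid antigen presenter, and CCL22, a chemokine, changed by -1.20 ± 0.11 and -1.20 ± 0.09 in the second interval. Their probes were detected at 12 h and on none of the 24 h arrays, so CD1C was at least 1.18-fold lower and CCL22 at least 1.1-fold lower. SLC2A5, a fructose transporter, went from -0.75 ± 0.13 to -0.96 ± 0.13 and to -1.19 ± 0.13 in the third interval. The tubulin TUBB4B was the 1 decrease that accelerated, from -0.29 ± 0.06 to -0.87 ± 0.06.

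Few genes stopped. ID1, an inhibitor of basic helix-loop-helix transcription factors, was detected on no 0 h array and rose at least 2.92-fold in the first interval (fitted change 1.73 ± 0.12). Its level was then 6.93, 7.15 and 7.07 in the 12 h wells and 7.04, 7.12 and 6.95 in the 24 h wells, overlapping fully, a change of -0.02 ± 0.12 (adjusted p = 0.943). It fell by 0.64 from 24 h to 36 h. MX1, an interferon-induced GTPase, and TINF2, a subunit of the telomere-capping shelterin complex, fell in the first interval (-0.69 ± 0.08 and -0.59 ± 0.07) and then changed by 0.10 ± 0.08 and 0.05 ± 0.07. ID1 was a stopping gene under all 19 other settings, MX1 under 16 and TINF2 under 8. The number stopping was 6 without the second 0 h well and 1 without the second 12 h well.

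Of the 15 genes that reversed, 6 turned upward and 9 downward. That balance turned with the scaling, to 10 upward and 1 downward under median centring and 7 upward and 3 downward on the authors' normalised values. XBP1, the transcription factor of the IRE1 branch of the unfolded protein response, read 9.34, 9.33 and 9.38 in the 12 h wells and 10.12, 10.19 and 10.12 in the 24 h wells. It fell by 0.33 in the first interval and then rose, with no overlap, by 0.79 ± 0.07 (adjusted p = 9.51e-06) and by 0.87 ± 0.07 in the third interval. SACM1L, a phosphoinositide phosphatase of the endoplasmic reticulum, went from -0.62 ± 0.09 to 0.37 ± 0.09, and MGAT2, a Golgi enzyme of N-glycan branching, from -0.40 ± 0.06 to 0.32 ± 0.06. These last 2 reversed under all 19 other settings and XBP1 under 15. ID3, of the same family as ID1, went from 0.60 ± 0.07 to -0.24 ± 0.07, and the histone gene H2BC4 from 0.64 ± 0.11 to -0.61 ± 0.11. ID3 lost its second-interval call without any one of the 12 h wells, without the second or the third 24 h well, under median centring, with no detection filter and with the replicate block, and reversed under 11 settings. The count of reversing genes was 6 and 9 without the first and the third 0 h well, 9, 9 and 6 without each 12 h well in turn, and 9 and 5 without the first and second 24 h wells.

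Some probes crossed the detection limit (detection p below 0.01), 42 from no 12 h well to all 24 h wells and 26 the other way. Upward, besides PRPH, the bounds were at least 4.17-fold for MFAP4, a matrix glycoprotein, 1.81-fold for PLD6, a mitochondrial phospholipase, 1.72-fold for SPNS3, 1.71-fold for ACKR3, a scavenging chemokine receptor, and 1.62-fold for GLI1, the Hedgehog transcription factor. Downward they were at least 1.78-fold for the histone gene H2AC8, 1.74-fold for the receptor TLR10, 1.65-fold for MRPS12 of the mitochondrial ribosome and 1.62-fold for CTRL, a chymotrypsin-like protease. All of these passed the test.

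As a group, the integrated stress response genes rose. Of 24 tested, 22 rose and none fell (0), beside 11.0% and 9.68% of all genes, and their median change was 0.81. Here and below, a number in brackets after a count of none is the count at an unadjusted limma p below 0.05. The median was 0.48 in the first interval, when 17 rose, beside 191 of all 8823 genes. It was 0.23 in the third, when 8 rose, beside 612 of all genes. The factors CEBPB and CEBPG changed by 0.97 ± 0.08 and 0.77 ± 0.08, ATF3 by 0.70 ± 0.13, and ATF5 by 0.70 ± 0.09. ATF4 itself, whose control is mainly at translation, changed by 0.43 ± 0.07, a call lost with the mean of its probes. The members not called were JDP2 and XPOT, chosen for naming after their values were seen. Between 21 and 23 members rose under the other settings.

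Genes for amino acid supply rose in part. Beside 11.0% of all genes rising and 9.68% falling, 7 of 11 synthesis enzymes rose and 1 fell, with a median of 0.5. Of 14 amino acid transporters 8 rose and 1 fell, with a median of 0.35. ASNS, the asparagine synthetase, changed by 0.79 ± 0.08 and SHMT2, a mitochondrial enzyme of serine and glycine, by 0.50 ± 0.07. SLC6A9, a glycine transporter, changed by 1.36 ± 0.11 and SLC7A3, a cationic amino acid transporter, by 0.91 ± 0.10. Of 17 cytosolic tRNA synthetases 10 rose and 4 fell. SARS1 changed by 0.85 ± 0.07, MARS1 by 0.55 ± 0.06 and IARS1 by 0.50 ± 0.11. The count of falling synthetases was 0 under median centring and without the third 12 h well, 2 without the first 0 h or the first 12 h well, and 1 without each 24 h well in turn. None of the 14 mitochondrial tRNA synthetases rose (0) and LARS2 fell (-0.37 ± 0.10), a call lost under median centring and without any one of the 12 h wells or the first or the second 24 h well. Of 13 genes that restrain mTORC1 SESN2 and DDIT4 rose, beside 11.0% of all genes, and none fell (1).

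Promoter windows of 250 bases before to 50 after the annotated start were read from RefSeq's table for GRCh38.p14, which matched 7207 of the 8823 genes. The ATF4 and C/EBP composite element TGATGNAA, searched on both strands, was found in 187 of those 7207 (2.59%). Among genes with a window it was in 6 of the 33 that started upward and 12 of the 86 that continued upward, and in 0 of the 19 that started and 1 of the 53 that continued downward. The stretches below show the letters found in 3 starters, SYTL1, TMEM154 and GOT1, and in 3 continuing genes, CEBPG, CHAC1 and ASNS, read 5′ to 3′ along the gene with the match in capitals, and all lie before the start.
SYTL1: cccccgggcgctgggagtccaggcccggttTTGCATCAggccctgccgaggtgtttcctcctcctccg
TMEM154: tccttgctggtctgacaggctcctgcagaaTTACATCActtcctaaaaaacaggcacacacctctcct
GOT1: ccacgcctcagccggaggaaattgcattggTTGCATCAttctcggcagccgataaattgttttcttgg
CEBPG: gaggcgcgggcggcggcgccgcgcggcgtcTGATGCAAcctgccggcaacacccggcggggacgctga
CHAC1: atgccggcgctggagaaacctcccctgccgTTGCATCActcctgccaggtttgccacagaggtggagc
ASNS: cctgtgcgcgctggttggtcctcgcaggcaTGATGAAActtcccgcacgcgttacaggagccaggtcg
They lie at chr1:27341946-27342013, plus strand, chr4:152680042-152680109, minus strand, chr10:99430785-99430852, minus strand, chr19:33374041-33374108, plus strand, chr15:40953232-40953299, plus strand and chr7:97872439-97872506, minus strand, in that order. In SYTL1, TMEM154, GOT1 and CHAC1 the element reads on the opposite strand. A match describes these letters and not binding. CEBPG changed by 0.77 and ASNS by 0.79 in the second interval, and CHAC1, which degrades glutathione, by 0.46, a call lost without the third 12 h or the second 24 h well.

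The chaperones of the endoplasmic reticulum moved in both directions. Of 17 tested, 3 rose and 5 fell, beside 11.0% and 9.68% of all genes. Their median was -0.02 and became 0.04 under median centring. Those that rose were DNAJB9, DNAJC10 (0.41 ± 0.08, lost with the mean of its probes) and TXNDC5, and those that fell were CALR, SDF2L1 (-0.68 ± 0.10), HSP90B1, MANF and HSPA5. Without the third 24 h well, 2 rose and 3 fell. HSPA5, the HSP70 of the endoplasmic reticulum, was named after its values were seen, as were TXNDC5, HSP90B1 and MANF. It read 8.36, 8.69 and 8.62 in the 12 h wells and 8.29, 8.22 and 8.25 in the 24 h wells, with no overlap, and changed by -0.30 ± 0.08 (adjusted p = 0.0245) after -0.95 ± 0.08 in the first interval. It was no longer a continuing gene under median centring and without the second or the third 12 h well or the second or the third 24 h well. In the third interval it changed by 1.15 ± 0.08, and 16 of the 17 chaperones rose with a median of 0.66, beside 612 of all 8823 genes.

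Of 27 genes for the translocon and vesicle transport 13 rose in the third interval, beside 612 of all 8823 genes. In the second interval 6 rose, beside 11.0% of all genes, and none fell (0). SEC61A1, the channel protein of the translocon, changed by 0.49 ± 0.10, and SSR1 and SSR2, subunits of the translocon-associated complex, by 0.43 ± 0.07 and 0.38 ± 0.08. The number rising was 3 without the first 12 h well. Of 19 genes for XBP1, sensors of unfolded proteins and degradation from the endoplasmic reticulum 6 rose and 4 fell, with 2 falling without the third 24 h well. CREB3L2, a membrane-bound transcription factor, changed by 0.59 ± 0.09 and UFD1, a cofactor of protein extraction, by -0.58 ± 0.08. ATF6 changed by 0.01 ± 0.08 and was not called.

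The endoplasmic reticulum stress element, a longer motif recognised by NF-Y with ATF6 or XBP1 and named here without its letters, was found in 13 of the 7207 windows (0.18%) and in 6 of the 17 chaperone genes (35.3%). Of the named genes that started or continued it was found in CALR alone, and it is shown there and in XBP1 because these moved in opposite directions, -0.95 and 0.79.
CALR: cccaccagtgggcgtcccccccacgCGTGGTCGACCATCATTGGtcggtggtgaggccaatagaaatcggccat
XBP1: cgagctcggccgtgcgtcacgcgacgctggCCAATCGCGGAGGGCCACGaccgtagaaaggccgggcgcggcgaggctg
The match is in capitals and the stretches lie at chr19:12938359-12938432, plus strand and chr22:28800573-28800651, minus strand.

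Sterol synthesis genes fell. Of 16 tested 10 fell and none rose (0), with a median of -0.4, beside 9.68% of all genes falling. The first-interval median was -0.29 with 6 falling, beside 146 of all 8823 genes. The third-interval median was 0.04 with 1 falling, beside 663 of all genes. DHCR7, which makes cholesterol in its last step, read 7.35, 7.36 and 7.62 at 12 h against 6.67, 6.73 and 6.61 at 24 h, with no overlap, and changed by -0.77 ± 0.11. MVD and SQLE, enzymes of the mevalonate and squalene steps, changed by -0.56 ± 0.10 and -0.53 ± 0.10. Between 9 and 12 fell under the other settings. The sterol element TCACNCCAC was in none of the windows of the 8 falling genes that had one, and in 1.43% of the windows of genes tested. Of 11 fatty acid synthesis genes 3 fell and 1 rose. FASN, the fatty acid synthase, changed by -0.75 ± 0.09, SCD, the stearoyl desaturase, by -0.32 ± 0.06, and ELOVL6, an elongase, by 0.51 ± 0.09.

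Cytosolic heat shock genes fell as well. Of 16 tested 12 fell and none rose (0), beside 9.68% and 11.0% of all genes, with a median of -0.5. The median was -0.12 in the first interval with none called (2 up and 3 down). It was -0.13 in the third with 1 falling, beside 663 of all 8823 genes. CHORDC1, a cochaperone of HSP90, changed by -0.82 ± 0.12 and HSPE1, the mitochondrial partner of HSP60 that is counted in the same list, by -0.57 ± 0.09. Between 10 and 13 fell under the other settings. The untreated 24 h wells of the other chip lay nearer to the 24 h than to the 12 h level for 8 of these 12 genes, and for 730 (40%) of all 1823 genes called. Both chips were normalised together, but chip and treatment cannot be told apart.

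Over all genes 9.68% fell in the second interval. Of 65 subunits of oxidative phosphorylation 15 fell and none rose (0), with a median of -0.13, but without the second 24 h well 8 fell. UQCRB of complex III changed by -0.53 ± 0.08 and ATP5MC3, another ring subunit of ATP synthase, by -0.49 ± 0.11. Of 71 mitochondrial ribosomal proteins 19 fell and none rose (2), with a median of -0.15, and between 12 and 28 fell under the other settings. MRPL52 changed by -0.75 ± 0.14 and MRPS28 by -0.57 ± 0.10. CLPP, the target of ONC201, changed by -0.17 ± 0.08 and its partner CLPX by 0.09 ± 0.07, neither called. HSPA9, the mitochondrial HSP70, changed by 0.39 ± 0.08.

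Of 40 ribosome assembly factors 11 fell, beside the same 9.68%, and none rose (0), with a median of -0.19, and between 6 and 18 fell under the other settings. In the third interval none was called in either direction (3 up and 1 down). NOP16 and RRP12 changed by -0.50 ± 0.08 and -0.46 ± 0.07. For 8 of the 11 falling factors the untreated 24 h wells of the other chip lay nearer to the 24 h than to the 12 h level. Over all genes called this share was 40%. The part of chip and of culture time was not tested. MYC, which drives many such genes, changed by 0.37 ± 0.06. Of 11 MYC network genes 5 rose, MXD1, MXD4 and MXI1 among them, and 1 fell, beside 11.0% and 9.68% of all genes. The number rising was 2, 1 and 2 without the second 12 h, the third 12 h and the second 24 h well. Of 32 proteasome genes 8 fell and 1 rose, led by PSMD1 (-0.58 ± 0.08), and under median centring 3 fell. In the third interval 19 of 42 replication genes and 31 of 46 mitosis genes fell, beside 663 of all 8823 genes. In the second, 9 replication genes fell and 2 rose, and 7 mitosis genes fell and none rose (2). The mitosis count was 0 falling and 1 rising under median centring, and 3, 2 and 3 without the first 12 h, the third 12 h and the first 24 h well. RRM2, a subunit of ribonucleotide reductase, changed by -0.82 ± 0.19, MCM4 of the replicative helicase by -0.40 ± 0.07 and CCNE1, cyclin E1, by -0.48 ± 0.10.

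Among B-cell antigens 9 of 21 fell and 2 rose, beside 9.68% and 11.0% of all genes, with a median of -0.21. VPREB1, a surrogate light chain of the pre-B-cell receptor, read 7.82, 8.18 and 8.18 in the 12 h wells and 6.93, 6.80 and 6.96 in the 24 h wells. The groups did not overlap, the change was -1.16 ± 0.13, and its probe was detected on no array at 36 h. CD52 and MS4A1, which encode the antigens CD52 and CD20, changed by -0.76 ± 0.10 and -0.73 ± 0.11, and LY9, a SLAM receptor, by 0.72 ± 0.10. SOX11, the transcription factor typical of mantle cell lymphoma, changed by 0.07 ± 0.06 and was not called. Of 14 BCL2 family genes 6 rose and 1 fell, beside 11.0% and 9.68% of all genes. The number rising was 3 without the third 12 h or the third 24 h well. HRK, a pro-apoptotic BH3-only gene, changed by 0.86 ± 0.10, the anti-apoptotic BCL2 by 0.66 ± 0.08 and the BH3-only BMF by 0.59 ± 0.14, the last not called on the authors' normalised values. TNFRSF10B, the TRAIL receptor DR5 and a CHOP target, changed by 0.57 ± 0.09.

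**Figure D3:**
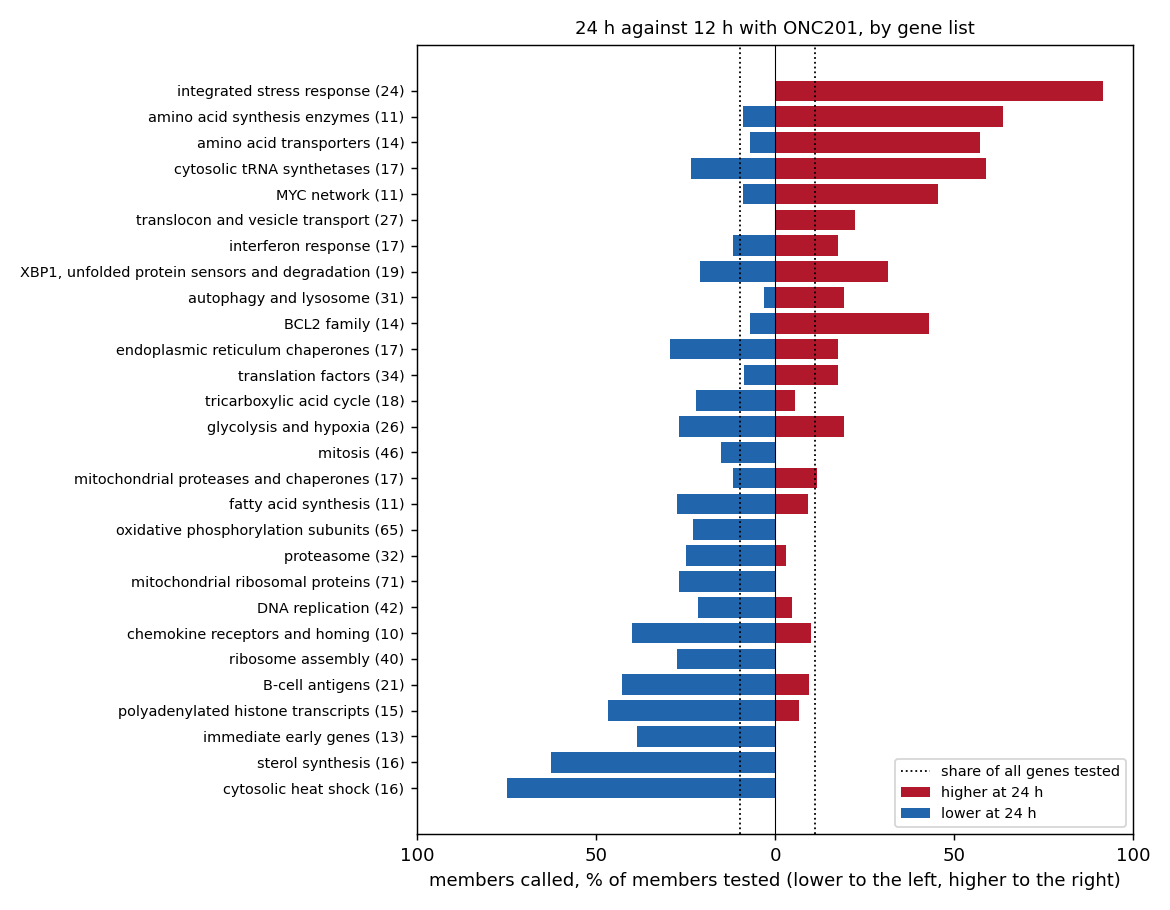
Percent of tested members called higher, to the right, or lower, to the left, between 12 h and 24 h for lists with at least 9 members tested and 4 called. Dotted lines mark all genes, 11.0% higher and 9.68% lower, and the integrated stress response (22 of 24 higher) and cytosolic heat shock (12 of 16 lower) reach farthest on either side.

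Tunicamycin over the same 12 h to 24 h shares no array with the ONC201 interval and was compared in a limma fit over the 20 JeKo-1 arrays of both chips, with 8600 genes. Each change was taken within its own chip, but drug and chip cannot be told apart in their difference. From 12 h to 24 h, 724 genes changed with tunicamycin, or 8.42%. The ONC201 change minus the tunicamycin change was called for 676 genes, or 7.86%, with 402 more positive and 274 more negative under ONC201. That count was 419 under median centring, 413 and 395 without either 12 h tunicamycin well and 351 and 449 without either 24 h one. Of the 1806 genes called in the ONC201 interval and tested here, 444 differed, 280 were called in the same direction with both drugs and 40 in opposite directions. Across genes (genes of one sample are not independent) the changes had a Pearson r of 0.34.

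The integrated stress response genes changed by a median of 0.05 with tunicamycin in this interval, and 19 of the 24 were more positive with ONC201 (beside 4.67% of all genes) and 1 less, GDF15, which was named after its values were seen. TRIB3 changed by 0.04 ± 0.09 with tunicamycin, a difference of 1.93 ± 0.11 (adjusted p = 6.11e-08). DDIT3 changed by -0.08 ± 0.11 with tunicamycin and differed by 1.46 ± 0.15, and PPP1R15A by 0.40 ± 0.10 and 0.83 ± 0.13. Both drugs had already acted for 12 h when this interval began, so a rise completed by 12 h does not enter these values. The labels do not match the drugs for strength. PRPH rose with both drugs, by 1.70 ± 0.10 with tunicamycin, and so did GAB2, by 1.20 ± 0.12. EIF4E3, a cap-binding protein, rose at least 1.54-fold with ONC201 (fitted change 1.40 ± 0.13) and changed by 1.05 ± 0.15 with tunicamycin, and the difference of 0.35 ± 0.19 was not called.

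Some chaperone, sterol and heat shock genes also differed between the drugs. Over all 8600 genes 3.19% had a more negative change with ONC201 than with tunicamycin. Chaperones of the endoplasmic reticulum changed by a median of 0.27 with tunicamycin, and 8 of 17 had a more negative change with ONC201. CALR changed by -0.02 ± 0.08 with tunicamycin and differed by -0.93 ± 0.11. HMGCS1 rose with tunicamycin (0.57 ± 0.09) and fell with ONC201, a difference of -1.53 ± 0.12 (adjusted p = 1.45e-06). Of the 16 sterol genes 7 had a more negative change with ONC201. HSPA1B changed by 0.19 ± 0.10 with tunicamycin and differed by -1.66 ± 0.13 (adjusted p = 1.79e-06). Of the 16 heat shock genes 9 had a more negative change with ONC201. PTPN6 and NAPSB fell with tunicamycin too, by -2.26 ± 0.14 and -1.29 ± 0.13. Oxidative phosphorylation subunits had a median of -0.13 with ONC201 and -0.14 with tunicamycin.

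**Figure D4:**
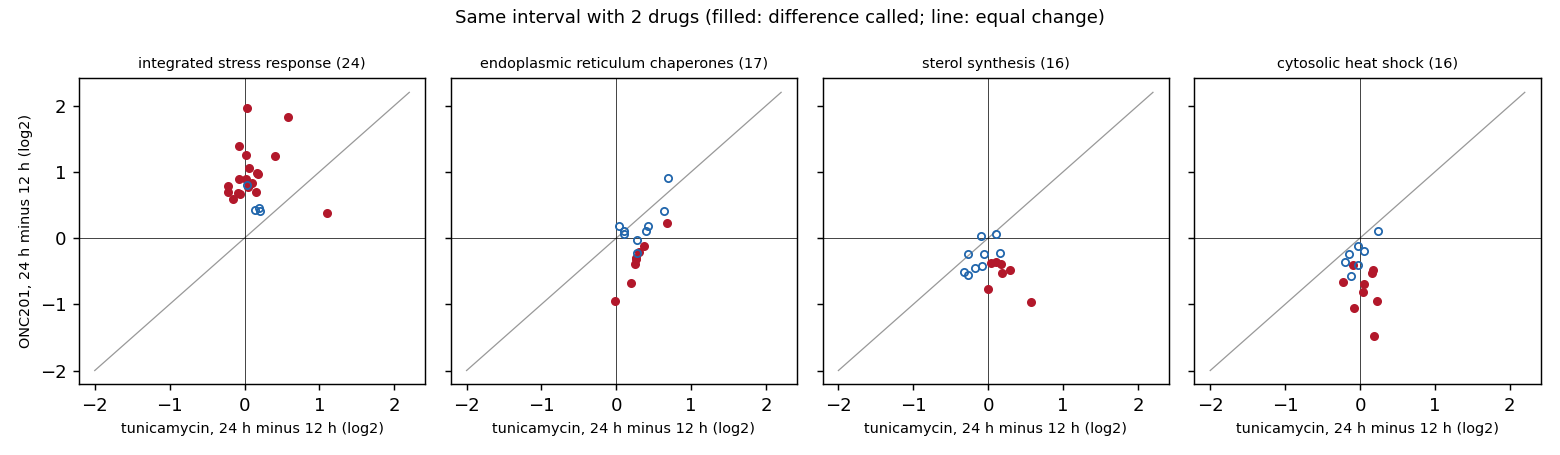
Change from 12 h to 24 h with ONC201, on the y axis, against the change with tunicamycin, on the x axis, both in log2 units, for the tested genes of 4 lists, 24 integrated stress response, 17 endoplasmic reticulum chaperone, 16 sterol synthesis and 16 cytosolic heat shock genes. Filled points are genes whose changes differ between the drugs, and most stress response genes lie above the diagonal while most filled points of the other panels lie below it.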

How the data were processed

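RNA of 28 samples was hybridised to Illumina HT-12 bead arrays and 12 JeKo-1 arrays of the ONC201 course were analysed, with the tunicamycin chip for comparison. The authors deposited a table of bead intensity per probe, neither normalised nor background-corrected as its name states, and beside each intensity the authors gave a detection p-value. GenomeStudio is named in the submitters' processing notes, and its version is not given in the sources used here. The authors also deposited normalised intensity values on a linear scale whose normalisation is not stated in the labels, and these, raised to at least 1 and taken to log2, served as an alternative. All 28 arrays were corrected and quantile-normalised together with neqc of limma 3.58.1 in R 4.3.3 with the package data.table, version 1.17.8, with an offset of 16 and the background inferred from the detection p-values. Of 47231 probes, 27004 had 1 symbol in the platform annotation, 4 had several and 20223 none listed. Symbols of 26970 were updated through the gene ID and 34 kept. Probes with a detection p below 0.01 on at least 3 of the 12 arrays were kept (15534), with 1 probe per gene, that of the highest mean, which left 8823 genes. A limma fit of 4 groups gave each interval and the change of pace, with Benjamini-Hochberg adjustment. A detection-limited change was bounded by each array's lowest level among detected probes. Every value column of the tables used had a sample, so 0 were left out.

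The wells were taken by their labels, and this interval and the gene lists were chosen with earlier results of these data known. Named genes are up to 8 per class and direction with the largest non-overlapping change, up to 4 called members per list, up to 6 each way that crossed the detection limit, and a set of stress regulators. The deviations of same-numbered wells of 12 h and 24 h had an r of 0.00324, -0.00259 and 0.0834 across genes. These values do not settle whether same-numbered wells were set up together. The main fit did not pair them. Simulated data had 8823 genes with independent noise, and 50 genes were shifted for each kind and size. The real second interval held 1823 calls, so the simulated shares may not hold for it. Shifts of 1 on the log2 scale were called for 96% and classed as starting for 86%. For shifts of 0.5 these shares were 52% and 4%. Simulated stops were classed as stopping for 80% at a size of 1 and for 18% at a size of 0.5. Alternatives varied the background, scaling, filter, probe rule, moderation and block, and left out each well. Figures were drawn with matplotlib 3.10.9 and tables handled with pandas 2.3.3 in Python 3.11.15.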

Additional observations from a re-analysis of the deposited data

Results flagged for a closer look

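Differences between intervals or drugs that passed a limma test of the difference itself are listed here as values. The pace changed between the first and the second interval for 85 genes, and the ONC201 and tunicamycin changes from 12 h to 24 h differed for 676. Groups of 3 wells were too small to screen for a well far from the others.

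Among the 15 reversing genes the pace was called for 10. The second-interval change minus the first was 1.12 for XBP1, 0.99 for SACM1L, 0.72 for MGAT2 and 0.67 for ADARB1, an RNA-editing deaminase. It was -1.98 for H2AC12 and -1.25 for H2BC4, both histone genes, -1.28 for SRCAP, a chromatin remodeller, -0.86 for SMG9, a factor of nonsense-mediated decay, -0.84 for ID3 and -0.46 for CAB39L. ADARB1, SMG9, H2AC12, SRCAP and CAB39L reversed under 14, 15, 10, 5 and 6 of the 19 other settings.

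Of the named genes, 3 were called in opposite directions with the drugs. The ONC201 change minus the tunicamycin change was -1.53 for HMGCS1, -1.06 for the histone gene H2BC12 and 0.99 for RELB, an NF-kB subunit. H2BC12 changed by -0.64 ± 0.08 with ONC201 and 0.42 ± 0.09 with tunicamycin, and RELB by 0.36 ± 0.08 and -0.63 ± 0.11. The role of the chips in these differences was not tested.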

How the results depend on the processing

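None of the 188 named genes changed direction under an alternative where it was called in the main or the other setting. ATF6, ID1 and TINF2, which were not called, changed sign, with changes from -0.024 to 0.106, -0.076 to 0.151 and -0.017 to 0.144. The balance of reversing genes, the mitosis counts and the balance of glycolysis and hypoxia genes turned under median centring. So did the median of the endoplasmic reticulum chaperones and the first-interval balance. The last went from 191 up and 146 down to 83 up and 148 down. The second-interval count kept within 1.5 times of 1823 under every full-sample setting, from 1493 with no detection filter to 2150 with trended, robust moderation, and lay between 1206 and 2073 with 1 well left out. Without background correction the pace was called for 135 genes, with 94 starting and 5 stopping. Under median centring 99 genes continued, 6 stopped and 419 differed from tunicamycin. With no detection filter 39 started. With trended, robust moderation the pace was called for 185, with 139 starting and 7 stopping. Another setting took the replicate number as a block, which treats same-numbered wells as sets. The first interval then held 218 calls, the second 1581 and the pace 52. Starting genes numbered 36, continuing 118, stopping 2 and reversing 8. With 1 well left out the ranges were 159 to 296 for the first interval, 32 to 113 for the pace, 23 to 85 starting, 78 to 149 continuing, 1 to 6 stopping, 5 to 12 reversing and 351 to 625 against tunicamycin. The pace was called for 50, 32 and 33 genes without the first, the second and the third 12 h well and 55 without the second 24 h well. Against tunicamycin the counts were 413 and 395 without either 12 h tunicamycin well and 351 and 449 without either at 24 h. Testing every kept probe, a setting chosen after seeing the data, gave 2554 of 15534 probes, 1262 higher and 1292 lower. Between 0 and 23 of the 188 named genes lost a call in a setting. The cause of these shifts was not tested. Signal near background and 3 wells per time limit the precision.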

Other observations

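Histone genes of the replication-dependent clusters, grouped by symbol after their values were seen and so given without a test, lay mostly lower at 24 h than at 12 h. Of 37 tested, 27 were called lower and 1 higher, beside 9.68% and 11.0% of all genes. A change below 0 was seen in 36, and the changes ran from -1.21 to 0.35 with a median of -0.6. The median was 0.17 in the first interval, -0.34 in the third and -0.11 with tunicamycin over the same hours. H1-2, a linker histone, changed by -0.64 ± 0.10 and H2AC6 by -0.73 ± 0.16. Many of these genes are near-identical copies, so a probe may read several, and most of their transcripts lack a poly(A) tail.

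Of 12 NF-kB genes 1 was called higher and 2 lower, beside 11.0% and 9.68% of all genes. A more positive change with ONC201 than with tunicamycin was called for 5, beside 4.67% of all genes. The tunicamycin median for the list was -0.36. CCL3, a chemokine, changed by -0.54 ± 0.09 with ONC201 and -1.02 ± 0.11 with tunicamycin. CXCR5, the receptor that guides B cells to follicles, changed by -0.38 ± 0.09 and -1.17 ± 0.12. KLF2, a factor of resting lymphocytes, changed by -0.71 ± 0.10 with ONC201 and -0.08 ± 0.12 with tunicamycin. ISG20, an interferon-induced exonuclease, changed by 0.52 ± 0.10 and 1.38 ± 0.12. With ONC201 5 of 26 glycolysis and hypoxia genes rose and 7 fell, beside 11.0% and 9.68% of all genes, with a median of -0.05. Under median centring 6 rose and 3 fell. Of this list the glycolytic enzymes ALDOC and PGAM1 changed by -0.59 ± 0.09 and -0.64 ± 0.11, and ADM by 0.52 ± 0.12. PHB1, a scaffold of the inner mitochondrial membrane, changed by -0.58 ± 0.07.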
